A study of Mus musculus with 5 samples.

Results

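The genes described here are Xcl1 and Xcr1, and Flt3l and Flt3, 2 ligand and receptor pairs through which lymphocytes and dendritic cells can communicate. They were taken by name, 4 of the 22552 gene symbols in the deposited single-cell matrices, and all 4 are in each of the 3 matrices. Ligand and receptor were followed in every cell class that the authors annotated and in every sample group.

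XCL1 is a chemokine made mainly by natural killer (NK) cells and activated CD8 T cells. Its receptor XCR1 is carried by type 1 conventional dendritic cells (cDC1s), the dendritic cells (DCs) specialised in presenting antigen from dead cells to CD8 T cells, and it guides these cells towards the source of the chemokine. FLT3L is the growth factor that drives the development and survival of DCs. Its receptor FLT3 is a tyrosine kinase on DC progenitors and on DCs, and NK cells and T cells are known sources of the ligand in tumours.

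Live CD45+ cells, which are blood-derived immune cells, were sorted from tumours and cultures, so tumour cells and stromal cells as sources of FLT3L were left out by the sort. All 3 groups of 5555 melanoma were subcutaneous tumours in C57BL/6 mice taken on day 4: unmodified Ptgs+/+ tumour cells (3262 cells used), tumour cells with the Ptgs-/- deletion (4677 cells), and Ptgs-/- tumours in mice given anti-NK1.1 clone PK136 and anti-Asialo GM-1 to deplete NK cells (3879 cells). The Ptgs genes encode the cyclooxygenases that start prostaglandin synthesis, and the deletion was in the tumour cells, not in the mice. The fourth tumour was CT26, a colon carcinoma in BALB/c mice taken on day 12 (8987 cells), and it differs from the 5555 tumours in tumour, strain and day together. A pool of bone marrow cultures from C57BL/6 mice, differentiated to DCs and harvested on day 10, held 3 hashtagged conditions: untreated (3344 cells), with Ptgs+/+ 5555 cells (3884 cells) and with Ptgs-/- 5555 cells (3584 cells).

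Every group consists of a single library or hashtagged condition (n = 1). There was therefore no replicate spread and no test between groups, and every difference below is one between libraries. Levels are given as counts in 1000000 (CPM): the unique molecular identifiers (UMIs, the counted RNA molecules) of the gene for every 1000000 UMIs of all cells of the class together. Square brackets hold exact 95% Poisson intervals of levels, exact binomial (Clopper-Pearson) intervals of shares and exact conditional binomial intervals of ratios, all covering counting error only. A ratio of at least 1.5-fold is called higher or lower, and beside the first such ratio stands the share of all tested genes that passed the same fold. Any 2 of the comparisons among the 5555 tumours share a library, and any 2 of those among the cultures share a condition. The median cell held 3634 UMIs in Ptgs+/+, 4563 in Ptgs-/-, 5462 in NK-depleted and 3821 in CT26 tumours, and between 8805 and 9709 in the cultures.

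2 lymphoid annotations went partly against their markers. The class of type 2 conventional DCs (cDC2s) also held macrophage and monocyte markers beside its own, described with Flt3 below. The 45 cells annotated as NK cells in the NK-depleted tumours summed to 184 CPM over 10 NK markers, against 12373 in Ptgs-/- and 11782 in Ptgs+/+ tumours, and Ncr1, Klra8, Klra4, Eomes, Prf1 and Gzma were at 0. The same 45 cells summed to 3251 over 12 T cell markers and 3490 over 8 markers of type 2 innate lymphoid cells (ILC2s), so they are called residual cells of the NK annotation here. The class annotated T cells also held ILC2 markers, 4484, 4019 and 4959 CPM in the 5555 tumours beside 3893, 3518 and 3017 for the T cell markers. In CT26 these sums were 2383 and 6041.

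All 4 genes lie on the minus strand (RefSeq, GRCm38.p6): Xcl1 at chr1:164931644-164935522, Xcr1 at chr9:123852315-123862029, Flt3l at chr7:45131183-45136490 and Flt3 at chr5:147330741-147400489. The bases 250 to 61 before the annotated start are shown for Xcl1 and Xcr1, the chemokine and its receptor, whose RNA each stood mainly in 1 class, 5′ to 3′ on the gene's strand. Capitals mark the one match to a searched motif.
Xcl1, chr1:164935583-164935772: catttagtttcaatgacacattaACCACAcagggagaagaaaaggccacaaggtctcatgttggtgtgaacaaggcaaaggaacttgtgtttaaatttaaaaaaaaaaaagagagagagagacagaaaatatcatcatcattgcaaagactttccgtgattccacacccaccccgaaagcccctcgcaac
Xcr1, chr9:123862090-123862279: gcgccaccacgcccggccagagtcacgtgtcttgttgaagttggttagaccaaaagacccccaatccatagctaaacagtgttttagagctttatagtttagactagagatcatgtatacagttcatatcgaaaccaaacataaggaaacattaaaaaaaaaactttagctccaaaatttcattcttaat
The match before Xcl1 is a RUNX motif, TGTGGT, read on the opposite strand as ACCACA at bases 227 to 222 before the start, and 11.0% of 32851 promoter windows of this length hold it. The other motifs, searched on both strands, were GAGGAAGT (ETS and PU.1 type, in 1.64% of windows), TGANTCA (AP-1, 5.22%), the interferon response motif (GAAA, any 2 bases, GAAA, 2.34%), AGGTGTGA (T-box, 0.886%) and TGACGTCA (CRE, 0.700%). None of them was found in the windows of Xcl1, Xcr1 or Flt3, which says only that these letters are not there.

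Some reads may be shared with neighbouring genes. Of the exon bases of Xcl1, 18.7% overlap the antisense gene Gm20743, and of those of Flt3l, 23.3% overlap Gm45713 on the same strand (GENCODE M21), so counts over those bases are uncertain. The authors' annotation and strand setting are not given in the sources used here.

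Xcl1 was a transcript of NK cells in the tumours. Over all sorted cells it stood at 7.80 CPM [6.37–9.45] in Ptgs+/+ tumours (104 UMIs in 46 cells), 20.1 [18.3–21.9] in Ptgs-/- tumours (487 UMIs in 193 cells), 0 [0–0.159] in NK-depleted tumours and 91.7 [88.7–94.7] in CT26 (3644 UMIs in 786 cells). No Xcl1 UMI was thus counted after NK depletion. Cells annotated as NK held 83.7% of these UMIs in Ptgs+/+, 89.1% in Ptgs-/- and 78.3% in CT26 tumours. In such pooled values fewer cells of a class and less RNA per cell cannot be told apart.

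The pooled level was 2.58-fold [2.08–3.21] higher in Ptgs-/- than in Ptgs+/+ tumours, a fold that 9.97% of all tested genes reached. Annotated NK cells made up 4.20% of the cells in Ptgs+/+, 10.9% in Ptgs-/-, 1.16% in NK-depleted and 15.0% in CT26 tumours. Within the class the Xcl1 level was 295 [236–364] in Ptgs+/+ (87 UMIs in 41 of 137 cells) and 355 [323–391] in Ptgs-/- tumours (434 UMIs in 168 of 510 cells). That ratio of 1.20 [0.955–1.53] did not reach the fold that counted as higher, which 15.3% of tested genes reached in NK cells. The share of NK cells with an Xcl1 UMI was 29.9% [22.4–38.3] in Ptgs+/+ and 32.9% [28.9–37.2] in Ptgs-/- tumours. At an equal depth of 2000 UMIs for each cell the shares were 29.7% and 38.5%, with 73 and 237 shallower cells dropped.

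CT26 NK cells held Xcl1 at 868 CPM [836–900], with a UMI in 599 of 1346 cells (44.5% [41.8–47.2], or 47.9% at 2000 UMIs with 552 cells dropped). Their NK markers summed to 16846. Since CT26 differs in tumour, strain and day, its values stand beside those of the 5555 tumours and no ratio was formed. In the NK-depleted tumours none of the 45 residual cells had an Xcl1 UMI (0 [0–25.1]), which allows a share of cells with a UMI of up to 7.87% (exact binomial) and sets no limit on cells expressing the gene. Over all sorted cells the level was at least 155-fold lower than in Ptgs-/- tumours with a floor of 3 counts for the library, where 2.73% of tested genes were lower by 1.5-fold.

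**Figure D1:**
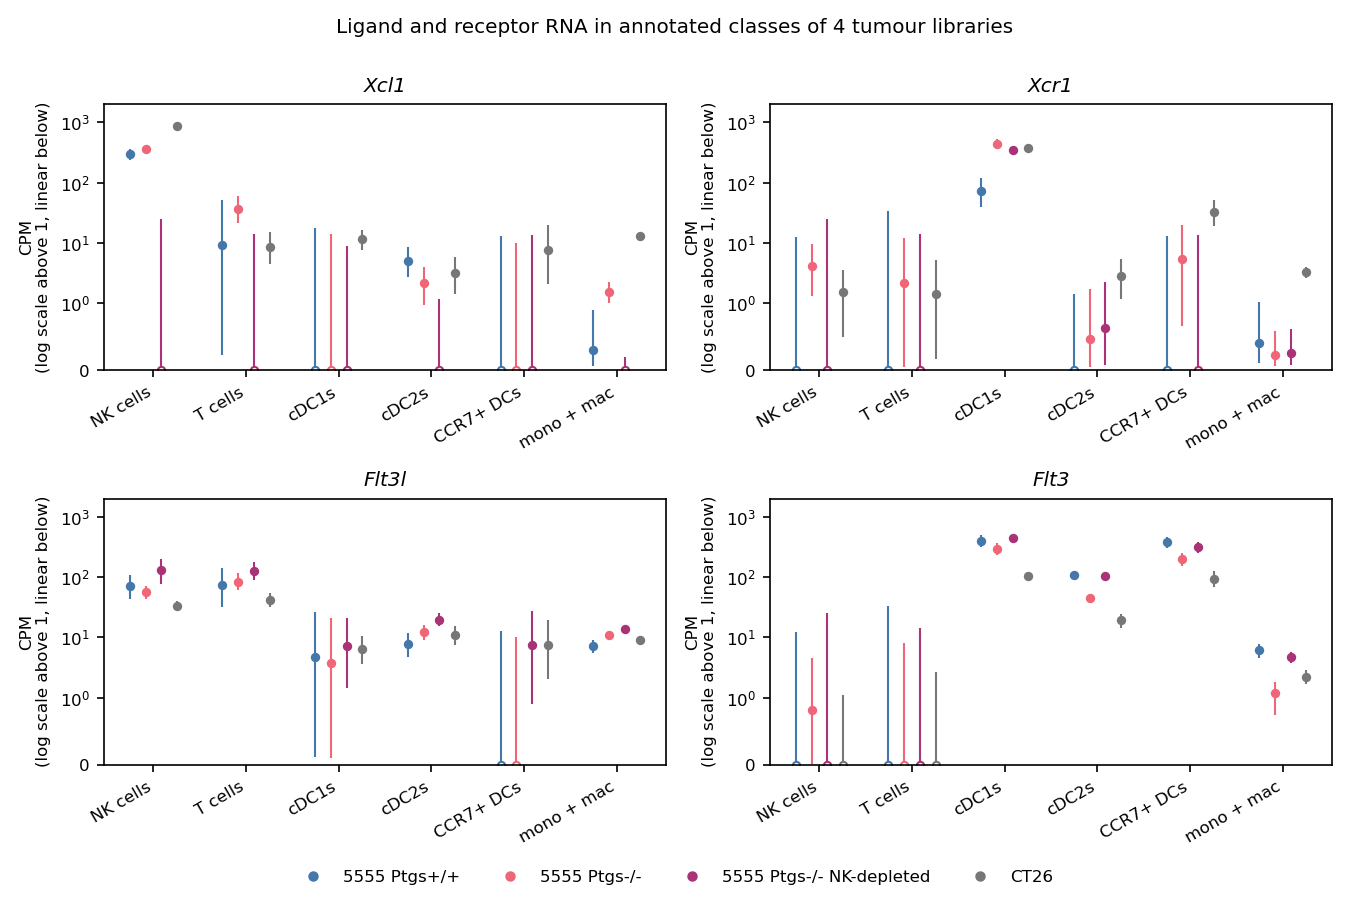
Level of Xcl1, Flt3l, Xcr1 and Flt3 in CPM of the class for annotated classes of the 4 tumour libraries. Points are pooled levels and bars exact 95% Poisson intervals covering counting error only; Xcl1 stands in NK cells and Xcr1 in cDC1s, while Flt3l and Flt3 each span several classes.

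Most Xcl1 UMIs came from few cells. The 10% of NK cells with the most Xcl1 UMIs held 64.4% of them in Ptgs+/+, 66.1% in Ptgs-/- and 63.3% in CT26 tumours. Of the positive cells, 23 in Ptgs+/+, 87 in Ptgs-/- and 190 in CT26 had 1 UMI, and 3, 19 and 186 had at least 5. The highest cell held 10, 20 and 63 UMIs.

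Within the NK class, Xcl1 did not follow the T cell receptor complex in the same way in each library. In Ptgs-/- tumours the level was 375 in NK cells without a UMI of a Cd3 gene and 146 in those with one. In Ptgs+/+ tumours the corresponding levels were 298 and 284, and in CT26 855 and 903. With a UMI of Ncr1 or Klrb1c, receptor genes among the NK markers used here, the levels were 225 in Ptgs+/+, 365 in Ptgs-/- and 856 in CT26. Without either they were 578, 301 and 960. None of these differences between subsets was tested.

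Other cytokines that NK cells send to DCs were detected more often in Xcl1+ than in Xcl1- NK cells of CT26. Ltb, which encodes lymphotoxin beta, was found in 71.3% of Xcl1+ and 52.7% of Xcl1- cells, Ifng (interferon gamma) in 35.6% and 24.4%, and Tnf in 9.02% and 3.48%. The chemokines Ccl3 and Ccl4 were found in 46.2% and 68.3% of Xcl1+ cells against 34.5% and 57.6%, whereas Ccl5 (89.0% and 92.9%) and the granzyme gene Gzma (90.7% and 96.9%) were not detected more often. In Ptgs-/- tumours the largest gap was again that of Ltb, in 28.6% of Xcl1+ and 10.8% of Xcl1- cells, at median depths of 2651 and 1890 UMIs per cell. Gzmb was detected in 41.7% and 56.7% of these cells. In Ptgs+/+ tumours Ccl3 was detected in 19.5% of Xcl1+ and 36.5% of Xcl1- cells, the opposite order. In CT26 the median depths were 2606 and 1945, and the part of depth in these shares was not tested.

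Among the fixed list of NK and ILC signals to DCs, 8 genes could be compared in NK cells between Ptgs-/- and Ptgs+/+ tumours. Only Fasl passed 1.5-fold upwards, as 15.3% of all tested genes did (163 to 340 CPM, 2.09-fold [1.55–2.88]) and only Ltb downwards, as 11.4% did (227 to 120, 0.530-fold [0.394–0.718]). The median log2 ratio of the list was 0.16, against 0.04 over all genes tested. Ifng, at 1.34-fold [1.02–1.79], and Ccl3, at 0.747-fold [0.620–0.903], stayed within the fold.

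Outside the NK class, the share of Xcl1+ cells that also held an NK marker UMI varied between classes. Among all monocytes and macrophages of CT26 it was 73.5%, against 17.6% of the Xcl1- cells, while in Monocyte 1 it was 1 of 9 cells (11.1%, against 14.0%) and in T cells 4 of 10 (40.0%, against 38.6%). In T cells there was 1 UMI in Ptgs+/+ tumours (9.09 CPM) and 17 in 7 of 214 cells in Ptgs-/- tumours (36.7), 16 of them in the 70 T cells with an NK marker UMI (6 of the 7 Xcl1+ cells, against 30.9% of the others). That ratio of 4.04 had an interval of 0.633 to 169 and is not distinguishable from 1 at this depth, and 22.0% of tested genes were higher in T cells. None of the 109 T cells in NK-depleted tumours had a UMI (0 [0–14.3]), and CT26 T cells had 12 UMIs in 10 of 767 cells (8.56). In the CT26 class TAM 2, a tumour-associated macrophage class, 299 of 302 Xcl1 UMIs were in the 321 cells with an NK marker UMI (119 against 0.463 CPM). In the CT26 class Proliferating cells, all 380 UMIs were in the 98 of 123 cells with an NK marker UMI, at 564 CPM. Whether such cells are doublets, mixed droplets or NK cells annotated otherwise was not tested.

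cDC1s and CCR7+ DCs, the migratory DCs, had no Xcl1 UMI in any 5555 library. CT26 cDC1s had 29 UMIs in 11 of 351 cells (11.6 CPM). cDC2s, the type 2 conventional DCs, held 13 UMIs in 3 Ptgs+/+ cells, which made up 12.5% of that library's Xcl1. All 3 had an NK marker UMI, but so did 78.2% of the Xcl1- cDC2s, at median depths of 13282 and 6051 UMIs. Of the monocytes and macrophages, which should lack the gene, 0.0424% had a UMI in Ptgs+/+, 0.408% in Ptgs-/-, 0% in NK-depleted and 1.97% in CT26 tumours. These shares are the background against which the NK shares stand.

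In the cultures, which hold DCs and no NK class, Xcl1 was found in 18 cells in all. Plasmacytoid DCs (pDCs) had 7 UMIs untreated, 38 with Ptgs+/+ cells and 18 with Ptgs-/- cells, and 29 of the 38 lay in 1 cell. Cultured cDC1s had none in any condition.

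**Figure D2:**
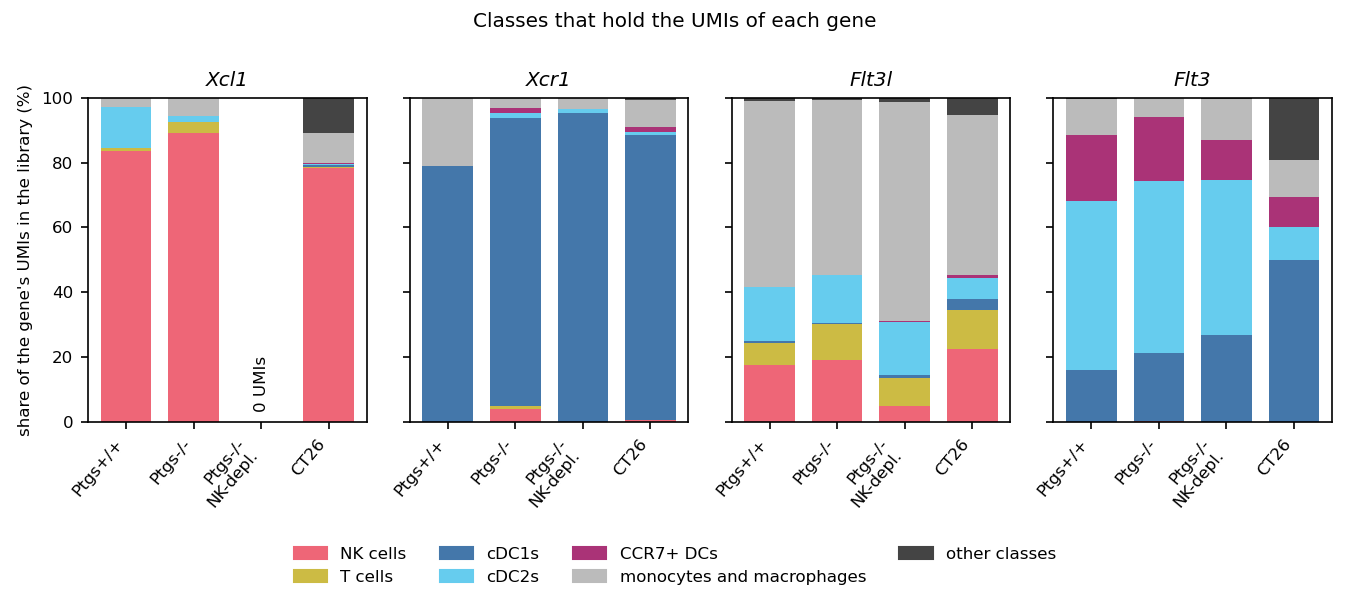
Share of all UMIs of each gene that each annotated group of classes held, in percent, for the 4 tumour libraries. The NK class held 83.7%, 89.1% and 78.3% of Xcl1 in Ptgs+/+, Ptgs-/- and CT26 tumours and the NK-depleted library had no Xcl1 UMI, while monocytes and macrophages held 57.5%, 54.2%, 67.4% and 49.5% of Flt3l.

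Flt3l, the second ligand, was spread over many classes. Over all sorted cells it stood at 8.99 CPM [7.46–10.8] in Ptgs+/+ tumours (120 UMIs), 14.6 [13.1–16.2] in Ptgs-/- (354 UMIs), 16.6 [14.9–18.3] in NK-depleted (384 UMIs) and 12.2 [11.1–13.3] in CT26 tumours (485 UMIs). It was 1.62-fold [1.32–2.01] higher in Ptgs-/- than in Ptgs+/+ tumours and 1.84-fold [1.5–2.28] higher in NK-depleted than in Ptgs+/+ tumours, where 13.3% of tested genes were higher. Between NK-depleted and Ptgs-/- tumours the ratio was 1.13 [0.979–1.31]. Unlike Xcl1, Flt3l was thus no lower in the library without NK cells.

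Per UMI, T cells and NK cells held the highest Flt3l levels among the annotated classes of each tumour library. T cells stood at 72.8 [31.4–143] in Ptgs+/+ (8 UMIs), 84.3 [59.9–115] in Ptgs-/- (39 UMIs), 128 [87.9–179] in NK-depleted (33 UMIs) and 41.4 [31.4–53.5] in CT26 tumours (58 UMIs). The ratio of Ptgs-/- to Ptgs+/+ was 1.16 [0.534–2.87] and that of NK-depleted to Ptgs-/- 1.51 [0.923–2.47], where 17.6% of genes were higher. Both intervals include 1.

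NK cells stood at 71.3 [44.1–109] in Ptgs+/+ (19 of 137 cells) and 55.7 [43.3–70.6] in Ptgs-/- tumours (64 of 510 cells), a ratio of 0.782 [0.473–1.34]. In CT26 they stood at 33.1 [27.2–40.0] (102 of 1346 cells). The residual cells of the NK annotation in depleted tumours stood at 130 [78.0–202] (13 of 45 cells), close to the 128 of that library's T cells, whose T cell and ILC2 markers they share. Their ratio to Ptgs-/- NK cells was 2.33 [1.32–3.91], and 27.7% of all tested genes were higher by 1.5-fold in that comparison of unlike cells. In Ptgs+/+ tumours NK cells with a Cd3 UMI held 151 [65.4–298] (8 UMIs) and those without 53.7 [28.6–91.9] (13 UMIs), with overlapping intervals. The order was the opposite in Ptgs-/- (38.9 and 57.2) and CT26 tumours (29.1 and 34.6), and these differences were not tested. Positive NK cells mostly held a single UMI: 17 of 19, 60 of 64 and 95 of 102 cells in Ptgs+/+, Ptgs-/- and CT26 tumours.

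The 2 ligands were found together in NK cells about as often as their separate shares give. Cells with both numbered 6 in Ptgs+/+ tumours where the product of the shares gives 5.69, 21 against 21.1 in Ptgs-/-, and 51 against 45.4 in CT26. Depth raises the joint detection of any pair of genes, and Xcl1+ NK cells were deeper than Xcl1- ones in Ptgs-/- and CT26 tumours. These counts therefore cannot tell whether Xcl1 and Flt3l tend towards the same or different NK cells.

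Because they were far more numerous, monocytes and macrophages held most Flt3l UMIs in the 5555 tumours: 57.5% in Ptgs+/+, 54.2% in Ptgs-/- and 67.4% in NK-depleted, with 49.5% in CT26. NK cells held 17.5%, 19.2%, 4.95% and 22.5%. The level over monocytes and macrophages was 7.13 [5.55–9.03] in Ptgs+/+, 11.0 [9.47–12.6] in Ptgs-/-, 13.8 [12.2–15.6] in NK-depleted and 8.95 in CT26 tumours. The ratio of Ptgs-/- to Ptgs+/+ was 1.54 [1.16–2.05], higher as in 10.5% of tested genes, and that of NK-depleted to Ptgs-/- 1.26 [1.04–1.52].

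The monocyte and macrophage classes did not all differ in the same direction. Monocytes 1 stood at 8.54 in Ptgs+/+ (10 UMIs), 18.6 in Ptgs-/- (84 UMIs) and 18.1 in NK-depleted tumours (138 UMIs), 2.18-fold [1.13–4.71] higher in Ptgs-/- than in Ptgs+/+, with 12.2% of genes higher. TAM 1 stood at 4.31, 7.95 and 12.1, with ratios of 1.85 [1.02–3.54] for Ptgs-/- over Ptgs+/+, where 12.2% were higher, and 1.52 [0.985–2.34] for NK-depleted over Ptgs-/-, where 3.77% were higher. Monocytes 2 stood at 14.9, 7.01 and 9.99, and Mono Mac at 18.2, 10.2 and 9.23, with ratios of 0.469 [0.166–1.18] and 0.557 [0.260–1.29] whose intervals include 1. In these classes 8.62% and 16.6% of tested genes were lower.

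Among DCs, cDC2s held Flt3l at levels near those of monocytes and macrophages, and few UMIs were found in cDC1s and CCR7+ DCs. cDC2s stood at 7.80 in Ptgs+/+, 12.3 in Ptgs-/- and 19.8 in NK-depleted tumours, with ratios of 1.58 [0.926–2.79] for Ptgs-/- over Ptgs+/+, where 15.3% of genes were higher, and 1.61 [1.10–2.37] for NK-depleted over Ptgs-/-, where 5.84% of genes were higher. cDC1s had 1, 1 and 3 UMIs and CCR7+ DCs 0, 0 and 2 in the 3 libraries. Neutrophils had 0, 0 and 3. In the cultures Flt3l stood at 8.92 untreated, 5.94 with Ptgs+/+ cells and 7.51 with Ptgs-/- cells over all cells. The ratio with Ptgs+/+ cells to untreated was 0.666 [0.558–0.794], as low as in 22.6% of tested genes or lower, and in cDC1s it was 0.706 [0.507–0.978]. The median ratio of genes found in at least 10% of cells of either group was itself 0.836 over all cells and 0.834 in cDC1s.

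Xcr1, the receptor of XCL1, was found mainly in cDC1s. Over all sorted cells it stood at 1.42 CPM in Ptgs+/+ (19 UMIs), 5.24 in Ptgs-/- (127 UMIs), 6.60 in NK-depleted (153 UMIs) and 26.8 in CT26 tumours (1067 UMIs). cDC1s held 78.9%, 89.0%, 95.4% and 88.0% of these UMIs while making up 1.16%, 0.706%, 1.39% and 3.91% of the cells. The pooled level was 3.68-fold [2.26–6.31] higher in Ptgs-/- than in Ptgs+/+ tumours although the share of cDC1s was not higher.

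Within annotated cDC1s, Xcr1 stood at 71.3 [39.9–118] in Ptgs+/+ (15 UMIs), 432 [356–519] in Ptgs-/- (113 UMIs), 348 [294–410] in NK-depleted (146 UMIs) and 375 [351–400] in CT26 tumours (939 UMIs). Of the 5555 tumours the Ptgs+/+ library was low, and its interval overlapped neither of the others. A UMI was found in 8 of 38 cells (21.1% [9.55–37.3]), 25 of 33 (75.8% [57.7–88.9]), 43 of 54 (79.6% [66.5–89.4]) and 255 of 351 (72.6%). At an equal depth of 2000 UMIs, which every cDC1 reached, these shares were 7.89%, 51.5%, 48.1% and 45.0%. Among monocytes and macrophages, which should lack the gene, 0.0847%, 0.0628%, 0.161% and 0.888% of cells had a UMI.

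The ratio of Ptgs-/- to Ptgs+/+ cDC1s was 6.05 [3.52–11.2], a call shared with 27.3% of all genes tested in these few cells. NK-depleted cDC1s were 4.89-fold [2.87–8.95] above Ptgs+/+, where 31.7% of genes were higher. Against Ptgs-/- tumours their ratio was 0.807 [0.627–1.04], within the fold. The library without Xcl1 UMIs thus differed in cDC1 Xcr1 from the Ptgs-/- library by less than 1.5-fold. In Ptgs+/+ tumours 4 cells held 73.3% of the class's Xcr1 UMIs, and the highest cell held 5 UMIs, against 12 in Ptgs-/-, 10 in NK-depleted and 18 in CT26.

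Other cDC1 markers also differed between the libraries. They summed, with Xcr1, to 6152 CPM in Ptgs+/+, 8497 in Ptgs-/- and 9865 in NK-depleted tumours. Of 11 other cDC1 markers, 5 were higher in Ptgs-/- than in Ptgs+/+ cDC1s, 0 lower and 6 within the fold, beside 27.3% higher and 21.8% lower of all genes, with a median ratio of 1.30. The adhesion molecule gene Cadm1 went from 19.0 to 137 (7.23-fold [2.59–28.0]), the integrin gene Itgae from 57.1 to 218 (3.82-fold [2.02–7.81]), the dead-cell receptor gene Clec9a from 85.6 to 221 (2.59-fold [1.5–4.67]) and the RNA sensor gene Tlr3 from 114 to 244 (2.14-fold [1.32–3.58]). Batf3 and Irf8, the transcription factors on which cDC1s depend, had ratios of 0.896 and 1.10, and Wdfy4, needed for cross-presentation, 1.00.

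**Figure D3:**
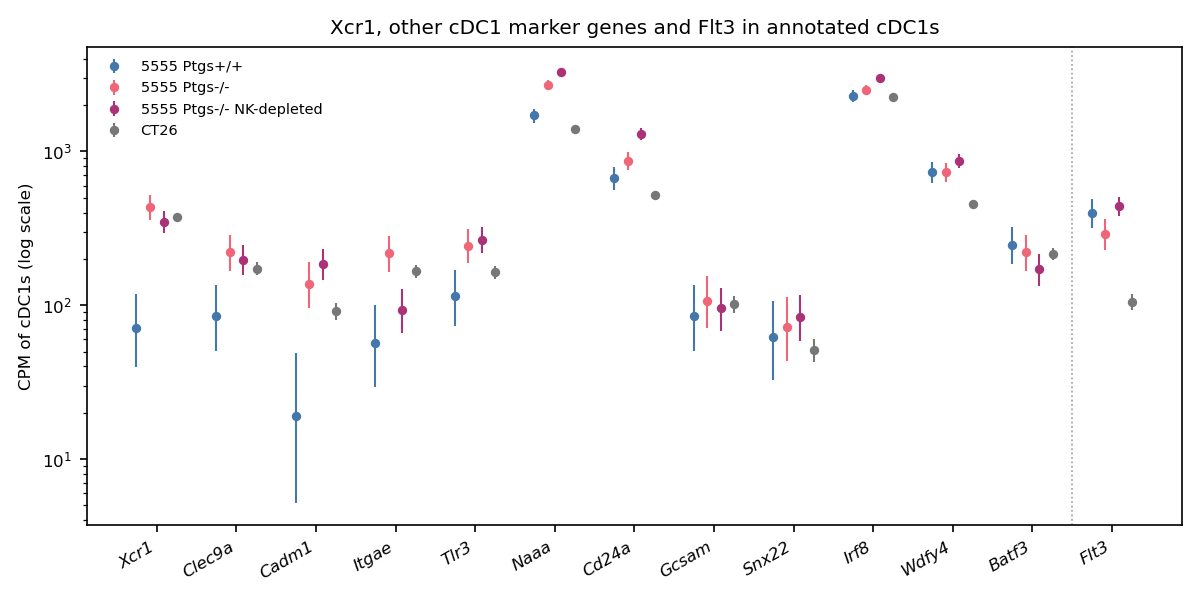
Level of Xcr1, of 11 other cDC1 marker genes and of Flt3 in annotated cDC1s of the tumour libraries, in CPM on a log scale. Bars are exact 95% Poisson intervals; Xcr1 and Cadm1 stand lowest in the Ptgs+/+ library (71.3 and 19.0 CPM), while Batf3, Irf8 and Wdfy4 differ little between it and the Ptgs-/- library.

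Cycling and neutrophil RNA also differed between these small classes. Cell-cycle markers summed to 9.51 CPM in Ptgs+/+ cDC1s, with Mki67, Top2a, Birc5 and Cdk1 at 0, and to 806 in Ptgs-/- and 611 in NK-depleted tumours. Without cells holding a UMI of those 4 genes, Xcr1 stood at 364 in Ptgs-/- and 390 in NK-depleted tumours, and the ratio to Ptgs+/+ was 5.10 [2.86–9.68]. Among cDC1s with a Clec9a UMI it was 148 in Ptgs+/+ (12 cells), 479 in Ptgs-/- (26 cells) and 369 in NK-depleted tumours (37 cells), a ratio of 3.25 [1.74–6.71]. Neutrophil markers summed to 14.3, 1585 and 31.0 in the 3 libraries, with a UMI in 9.09% of the Ptgs-/- cDC1s, and their part in the result was not tested.

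Some markers of the subset were detected more often in Xcr1+ than in Xcr1- cDC1s. In CT26, with the most cells, Itgae was found in 62.4% of Xcr1+ and 29.2% of Xcr1- cDC1s, Cadm1 in 43.9% and 20.8%, and the proliferation gene Mki67 in 31.0% and 16.7%. In Ptgs-/- tumours Cadm1 was found in 72.0% of the 25 Xcr1+ and in none of the 8 Xcr1- cells, while Batf3 was found in 80.0% and 87.5% and Wdfy4 in 100% of both. The Xcr1+ cells were deeper, with medians of 8322 against 5797 UMIs in Ptgs-/- and 7309 against 5703 in CT26 tumours, and the part of depth was not tested.

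Genes of the pathway lists in cDC1s did not move as one between Ptgs-/- and Ptgs+/+ tumours. Of 5 chemokine receptors compared, 4 were higher and 1 lower, beside 27.3% higher and 21.8% lower of all genes, with a median log2 ratio of 1.33 against 0.09 over all genes. The lower one was Cxcr4, at 0.301-fold [0.123–0.671], while Cxcr3 stood at 2.57-fold [0.900–8.97], an interval that includes 1. Xcr1 was thus among 4 receptor genes on the higher side, and the list's receptors split between directions.

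Outside cDC1s, Xcr1 was scarce in 5555 tumours. CCR7+ DCs had a UMI in 0 of 54, 1 of 58 and 0 of 45 cells of the Ptgs+/+, Ptgs-/- and NK-depleted libraries. cDC2s stood at 0, 0.473 and 0.630 CPM. In CT26, CCR7+ DCs had 17 UMIs in 10 of 112 cells (32.4 CPM), 15 of them in the 8 of those cells with another cDC1 marker, which 45.1% of the Xcr1- cells also held. Of those 10 cells 9 held a UMI of Il12b, a subunit of interleukin 12, against 45.1% of the Xcr1- cells, and only 1 held Flt3. The CT26 class TAM 2 had 62 UMIs in 32 cells (6.89 CPM), 5.81% of the library's Xcr1.

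The ratio of ligand-bearing to receptor-bearing cells differed between tumours. Xcl1+ NK cells and Xcr1+ cDC1s numbered 41 and 8 in Ptgs+/+ (5.12 to 1), 168 and 25 in Ptgs-/- (6.72 to 1), 0 and 43 in NK-depleted, and 599 and 255 in CT26 (2.35 to 1). Counting all annotated cells, there were 3.61 NK cells per cDC1 in Ptgs+/+, 15.5 in Ptgs-/-, 0.833 in NK-depleted and 3.83 in CT26 tumours. By these counts the detected pairs shifted less between Ptgs+/+ and Ptgs-/- tumours than the annotated cells did. The Ptgs+/+ value rests on 8 Xcr1+ cDC1s, no interval was formed, and detection depends on depth. At 2000 UMIs for each cell, 3 of 38 Ptgs+/+ and 17 of 33 Ptgs-/- cDC1s had an Xcr1 UMI. In Ptgs-/- tumours NK cells took a larger share of all cells and Xcr1+ cells a larger share of cDC1s.

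Flt3, the receptor of FLT3L, was found in cDC1s, cDC2s, CCR7+ DCs and pDCs, while the CT26 class moDC held 2 of that library's 529 UMIs (0.378%). Over all sorted cells it stood at 39.4 CPM [36.1–42.9] in Ptgs+/+ (526 UMIs), 14.9 [13.4–16.5] in Ptgs-/- (361 UMIs), 29.6 [27.4–31.9] in NK-depleted (687 UMIs) and 13.3 in CT26 tumours (529 UMIs). It was 0.378-fold [0.329–0.432] as high in Ptgs-/- as in Ptgs+/+ tumours, where 7.20% of genes were lower, and 1.99-fold [1.75–2.27] higher in NK-depleted than in Ptgs-/- tumours, where 1.88% were higher. The Ptgs-/- library was thus the low one of the 5555 tumours. cDC2s held 52.3%, 52.9% and 47.9% of the Flt3 UMIs in the 3 libraries. In CT26 cDC1s held 49.9%, and pDCs, at 120 CPM [97.7–146] with a UMI in 74 of 204 cells, held 18.9%.

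In cDC1s Flt3 stood at 399 [319–494] in Ptgs+/+ (32 of 38 cells), 290 [229–363] in Ptgs-/- (27 of 33 cells), 439 [378–507] in NK-depleted (49 of 54 cells) and 105 [93.0–119] in CT26 tumours (170 of 351 cells). The ratio of Ptgs-/- to Ptgs+/+ was 0.727 [0.526–1.00], within the fold, and the level in NK-depleted was 1.51-fold [1.15–2.00] that in Ptgs-/- cDC1s, higher as in 23.2% of genes. Flt3 and Xcr1 therefore did not follow each other over these libraries: the library lowest in Xcr1 was not low in Flt3. Of the Xcr1+ cDC1s, 8 of 8, 22 of 25 and 40 of 43 also held a Flt3 UMI in the 5555 tumours and 130 of 255 in CT26.

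In cDC2s Flt3 stood at 107 [94.9–121] in Ptgs+/+ (157 of 379 cells), 45.2 [39.0–52.1] in Ptgs-/- (113 of 523 cells), 104 [92.7–115] in NK-depleted (177 of 406 cells) and 19.1 [14.4–24.9] in CT26 tumours (48 of 477 cells). The Ptgs-/- level was 0.421-fold [0.348–0.509] that of Ptgs+/+, where 11.0% of genes were lower, and the NK-depleted level was 2.29-fold [1.91–2.75] that of Ptgs-/-, where 5.84% were higher. Between NK-depleted and Ptgs+/+ tumours the ratio was 0.966 [0.820–1.14].

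Macrophage RNA and other marker sums of the annotated cDC2s also differed between these libraries. The cDC2 markers summed to 1727 CPM in Ptgs+/+, 3150 in Ptgs-/- and 3963 in NK-depleted tumours, and the monocyte markers to 1224, 2457 and 2425. Cell-cycle markers summed to 122, 436 and 238, and NK markers to 734, 219 and 185. The part of each in the Flt3 difference was not tested. The macrophage markers summed to 1160 CPM of cDC2s in Ptgs+/+, 2672 in Ptgs-/- and 1824 in NK-depleted tumours, and 33.2%, 78.4% and 69.0% of the cDC2s had a UMI of C1qa, C1qb, C1qc or Mrc1. In the cDC2s without such a UMI, Flt3 stood at 144 [126–165] in Ptgs+/+ (253 cells), 177 [145–214] in Ptgs-/- (113 cells) and 220 [188–256] in NK-depleted tumours (126 cells). There the ratio of Ptgs-/- to Ptgs+/+ was 1.23 [0.964–1.55], above 1 with an interval that includes 1, and that of NK-depleted to Ptgs-/- was 1.24 [0.969–1.60]. In the cDC2s with such a UMI, which were deeper, Flt3 stood at 51.6 [38.7–67.5], 23.4 [18.7–29.0] and 66.7 [56.8–77.8]. By this split the lower Flt3 of Ptgs-/- cDC2s stood in the cells with macrophage RNA. The split was chosen after seeing the data, and Mrc1, which is among its genes, was found less often in Flt3+ cDC2s. It therefore cannot tell where in the class the difference lies. Without cells holding a UMI of another lineage, C1qa among the genes used, Flt3 stayed lower by at least 1.5-fold in Ptgs-/- than in Ptgs+/+ cDC2s.

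**Figure D4:**
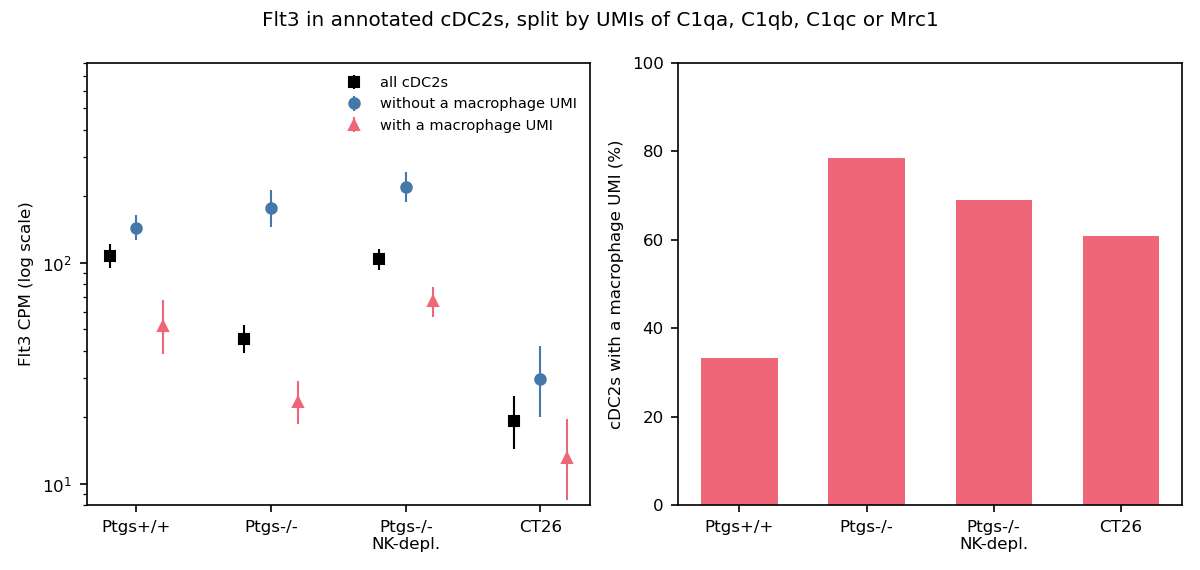
Left, Flt3 in CPM on a log scale in all annotated cDC2s and in those without and with a UMI of C1qa, C1qb, C1qc or Mrc1, with exact 95% Poisson intervals; right, percent of cDC2s with such a UMI. Cells without one stand at 144, 177 and 220 in the 5555 libraries, while all cDC2s stand at 107, 45.2 and 104.

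Within the class, Flt3+ cDC2s differed from Flt3- ones in the same markers in each tumour library. Cd209a, a lectin gene of monocyte-derived and type 2 DCs, was found in 83.2% of Flt3+ and 47.1% of Flt3- cDC2s in Ptgs-/-, 87.0% and 55.5% in NK-depleted, 45.2% and 35.1% in Ptgs+/+ and 81.2% and 67.4% in CT26 tumours. The macrophage mannose receptor gene Mrc1 was found in 46.0% and 81.7%, 49.7% and 74.2%, 15.9% and 34.7%, and 37.5% and 59.0% in the same order. Cd209a was thus detected more often and Mrc1 less often in Flt3+ than in Flt3- cells of all 4 libraries. No interval was formed for these shares, and the part of depth in them was not tested.

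In CCR7+ DCs Flt3 stood at 374 [306–453] in Ptgs+/+ (45 of 54 cells), 197 [155–249] in Ptgs-/- (33 of 58 cells), 312 [249–387] in NK-depleted (27 of 45 cells) and 93.4 [69.1–124] in CT26 tumours. The Ptgs-/- level was 0.528-fold [0.386–0.719] that of Ptgs+/+, where 25.9% of genes were lower, and the NK-depleted level was 1.58-fold [1.14–2.20] that of Ptgs-/-, where 23.9% were higher. CCR7+ DCs without a UMI of C1qa, C1qb, C1qc or Mrc1 stood at 372, 200 and 316 in the 5555 libraries. Few cells had such a UMI (4 of 54, 16 of 58 and 7 of 45), and the part of macrophage RNA was not tested. Monocytes 2 were also lowest in the Ptgs-/- library, at 26.6 (32 UMIs), 9.01 (9 UMIs) and 27.0 (54 UMIs) in Ptgs+/+, Ptgs-/- and NK-depleted tumours. Their ratios were 0.340 [0.143–0.728] for Ptgs-/- over Ptgs+/+, where 8.62% were lower, and 2.99 [1.47–6.90] for NK-depleted over Ptgs-/-, where 8.21% were higher. All monocytes and macrophages together stood at 6.10, 1.20 and 4.69, with ratios of 0.197 (7.75% lower) and 3.91 (2.07% higher). NK cells had 1 Flt3 UMI in all 4 tumours together and T cells none.

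Most genes of FLT3 signalling stayed within the fold between Ptgs-/- and Ptgs+/+ tumours, in cDC2s and in cDC1s. Those past it in cDC1s were lower in Ptgs-/- tumours. In cDC2s, of 20 genes compared between these tumours, 1 was higher, 1 lower and 18 within the fold, beside 15.3% higher and 11.0% lower of all genes, with a median log2 ratio of 0.04, the same as over all genes. The lower one was Flt3 itself and the higher one the suppressor of cytokine signalling gene Socs6 (2.59-fold [1.94–3.50]). In cDC1s 0 of 19 were higher and 6 lower, beside 27.3% higher and 21.8% lower of all genes, with a median of -0.04 against 0.09 over all genes. Among the lower ones were the transcription factor gene Stat5a, at 0.402-fold, the growth kinase gene Mtor, at 0.482-fold, and the adaptor gene Gab2, at 0.535-fold. Between NK-depleted and Ptgs-/- cDC1s 4 of 19 were higher, beside 23.2% of all genes, and 0 lower (median 0.20 against 0.10), with Mtor at 1.87-fold.

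Kit, a receptor tyrosine kinase of the same family as FLT3, was lower in cDC1s and cDC2s of Ptgs-/- than of Ptgs+/+ tumours. It went from 242 to 134 CPM in cDC1s (0.551-fold [0.348–0.864]) and stood at 0.385-fold [0.282–0.522] in cDC2s, while in CCR7+ DCs Kit was at 0.673-fold [0.382–1.18], an interval that includes 1. Csf2rb, the shared receptor chain for GM-CSF and related cytokines, went from 319 to 195 in cDC1s (0.611-fold [0.416–0.893]). Among DC lineage factors in cDC2s, 6 of 13 were higher, 4 lower and 3 within the fold, beside 15.3% higher and 11.0% lower of all genes. Zfp366 went from 46.4 to 10.4 (0.224-fold [0.155–0.319]), whereas Batf3, Irf4 and Irf8 stood at 3.08-, 2.45- and 1.85-fold. Macrophage RNA in the class moved with these values too, and its part in them was not tested.

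In the cultures, Xcr1 was lower wherever tumour cells had been present. cDC1s stood at 165 CPM [157–173] untreated (690 of 1165 cells, 59.2%), 58.0 [53.4–63.0] with Ptgs+/+ cells (352 of 1111 cells, 31.7%) and 81.1 [75.2–87.3] with Ptgs-/- cells (398 of 1059 cells, 37.6%). At an equal depth of 5000 UMIs the shares were 47.0%, 20.2% and 28.5%, with 98, 43 and 70 shallower cells dropped. The level with Ptgs+/+ cells was 0.352-fold [0.320–0.388] the untreated one, where 24.6% of genes were lower, and that with Ptgs-/- cells 0.492-fold [0.450–0.538], where 15.8% were lower. Between the tumour-cell conditions the ratio of Ptgs-/- to Ptgs+/+ was 1.40 [1.25–1.56], an interval above 1 but within the fold, which 3.09% of genes passed upwards. The conditions were ordered untreated, with Ptgs-/- cells, with Ptgs+/+ cells, with no overlap of the intervals.

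Other classes of the cultures also held less Xcr1 with tumour cells. Proliferating cDC1s stood at 156, 42.9 and 73.4 in untreated cultures, with Ptgs+/+ cells and with Ptgs-/- cells. The second was 0.276-fold [0.244–0.312] the first, where 21.4% of genes were lower, and the last was 1.71-fold [1.49–1.97] above the second, where 2.49% of genes were higher. CCR7+ DCs stood at 44.4, 11.7 and 11.3 (0.264-fold with Ptgs+/+ cells, where 34.6% of genes were lower), with a ratio between the tumour-cell conditions of 0.964 [0.652–1.40]. cDC2s stood at 18.6, 4.28 and 4.68 (0.230-fold with Ptgs+/+ cells, where 12.7% were lower), with a ratio of 1.09 [0.678–1.77]. The level with Ptgs-/- cells above that with Ptgs+/+ cells was thus found in both cDC1 classes, and the intervals of CCR7+ DCs and cDC2s include 1.

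The lower Xcr1 with Ptgs+/+ cells came with lower values of other cDC1 markers. Of 11 others, 8 were lower than untreated, 0 higher and 3 within the fold, with a median ratio of 0.628. Of all genes 24.6% were lower and 5.04% higher. The median over genes found in at least 10% of cells of either group was itself shifted to 0.834 (log2 -0.26). Tlr3 stood at 0.333-fold, Naaa at 0.392-fold, Wdfy4 at 0.415-fold and Cadm1 at 0.492-fold, while Gcsam (1.03) and Batf3 (0.833) stayed within the fold. Relative to the median of all genes the Xcr1 ratio was 0.423. With Ptgs-/- cells 4 of the 11 were lower than untreated, beside 15.8% of all genes, and 7 within the fold. Among cDC1s with a Clec9a UMI the Xcr1 ratio of Ptgs+/+ to untreated was 0.413 [0.367–0.464]. Cells with a cell-cycle UMI stood at 179, 64.8 and 82.9 and those without at 158, 56.4 and 80.6, so the order held in both.

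**Figure D5:**
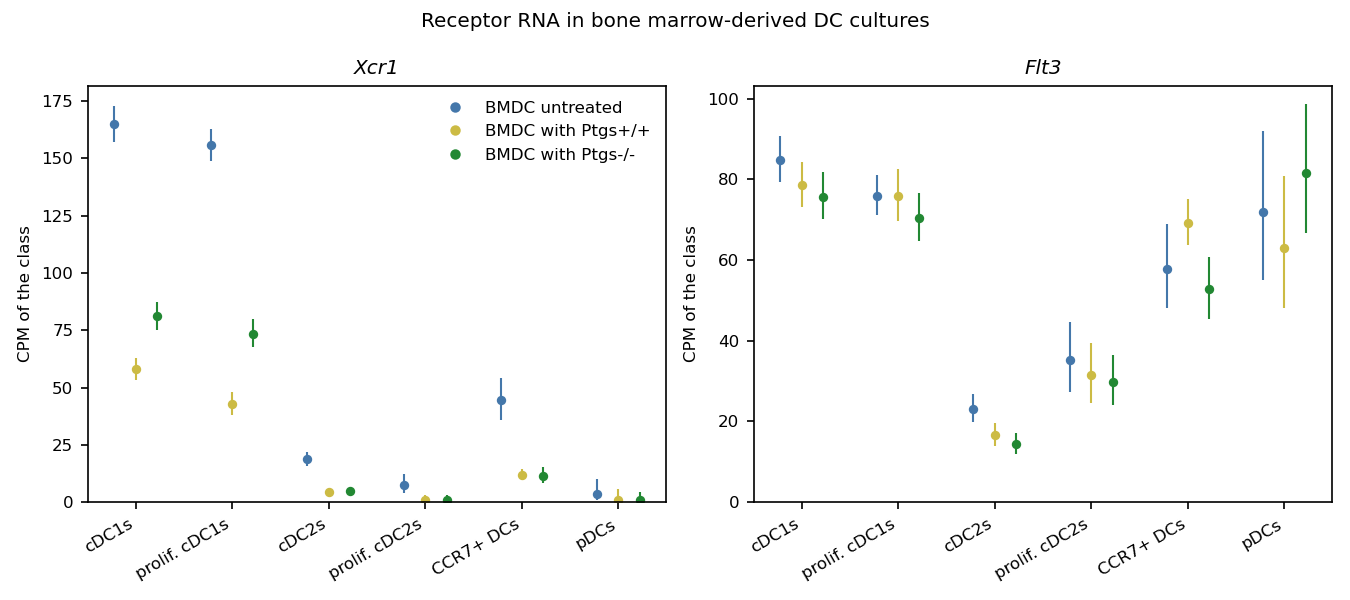
Level of Xcr1 (left) and Flt3 (right) in CPM of the class for the DC classes of the 3 culture conditions, with exact 95% Poisson intervals. Xcr1 in cDC1s stands at 165, 58.0 and 81.1 untreated, with Ptgs+/+ cells and with Ptgs-/- cells, while Flt3 in cDC1s stands at 84.9, 78.6 and 75.7.

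Flt3 stayed nearly level in the same cultured cDC1s. It stood at 84.9 untreated, 78.6 with Ptgs+/+ cells and 75.7 with Ptgs-/- cells, with ratios of 0.926 [0.839–1.02] for Ptgs+/+ over untreated and 0.963 [0.867–1.07] for Ptgs-/- over Ptgs+/+. Relative to the median of all genes the first ratio was 1.11, on the other side of 1. cDC2s stood at 23.1, 16.6 and 14.4, and the level with Ptgs-/- cells was 0.624-fold [0.491–0.791] the untreated one, where 14.5% of genes were lower. CCR7+ DCs stood at 57.8, 69.3 and 52.7 and pDCs at 71.9, 63.0 and 81.6.

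The chemokine receptors of cultured cDC1s moved in different directions with Ptgs+/+ cells. Of 5 compared, Xcr1 among them, 2 were higher, 2 lower and 1 within the fold, beside 5.04% higher and 24.6% lower of all genes. The 2 lower ones were Xcr1 itself and Ccr2. Ccr7, the receptor for migration to lymph nodes, went from 12.9 to 43.1 (3.35-fold), and Ccr2, a receptor for monocyte chemokines, from 262 to 65.9 (0.252-fold). Of 6 related growth factor ligands and receptors, a list that holds Flt3, 3 were higher and 0 lower. Higher ones were Csf2rb, from 166 to 345 (2.08-fold [1.96–2.21]), and Kit, from 45.2 to 79.4 (1.76-fold). Of 20 FLT3 signalling genes, Flt3 among them, 1 was higher, 5 lower and 14 within, with a median log2 ratio of -0.21 against -0.28 over all genes. With Ptgs-/- rather than Ptgs+/+ cells, Ccr7 stood at 0.374-fold and Ccr2 at 2.13-fold, where 1.75% of genes were lower and 3.09% higher.

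Over 73 pairs of class and library with at least 30 cells, the gene profiles most like each of the 4 were found among 11655 genes by Pearson's r of log2(CPM + 5), given as a description, since the points share libraries and cells. Closest to Xcl1 were Cd160 (0.94), Ncr1 (0.93), Samd3 (0.91), Ctsw (0.91) and Prf1 (0.90). Closest to Xcr1 were Snx22 (0.97), Gcsam (0.94), Fam149a (0.93), Gpr33 (0.91) and Gramd2 (0.91). Closest to Flt3 were Tbc1d8 (0.88), Zfp366 (0.85), Zbtb46 (0.84), Tspan33 (0.82) and Slc46a3 (0.82). Flt3l had the loosest neighbours: Rasal3 (0.85), Tnik (0.82), Gfi1 (0.81), Gimap8 (0.81) and Nlrc3 (0.81). Between the 4 genes r was 0.61 for Xcr1 and Flt3, 0.40 for Xcl1 and Flt3l, and -0.44 for Flt3l and its receptor Flt3.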

How the data were processed

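Live CD45+ cells were profiled with 10x 3' kits, per the labels' protocols, with Cell Ranger 3.0.2, Partek and mm10 in the submitters' processing notes. The deposited values are log2(CPM + 1) per cell, with the authors' annotation of classes and groups. They were turned back to CPM and to UMIs, of which at least 99.93% came out whole (within 0.1 UMI or 0.01% of the value). UMIs were summed per group and class (at least 30 cells in both groups to compare), with no count model, because each group is 1 library. The expression floor for the shares of all tested genes was detection in 5% of cells, and a count of 0 was taken as 3 counts in bounds. Of the 11872 cells of the 5555 tumours 11818 were used: 36 had no annotation and 18 carried barcodes found in more than 1 library. Between matrices 23, 44 and 29 barcodes coincided. Doublets were not called, and no source used here states that they were removed. Group totals were 13341140 to 39748611 UMIs.

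The 4 genes and all lists were chosen with earlier results of these data known. 2 genes of the lists are not reported here and entered none of the list or marker values. Also named are, for each gene, the 5 genes of most similar profile (at least 100 UMIs, without ribosomal, mitochondrial, haemoglobin and antigen receptor genes), and, of each list, the 2 to 4 members of largest fold that 10% or more of the cells of either group held. Alternatives tried were other pseudocounts, means over cells, thinning to an equal depth (2000 UMIs in tumour cells, 5000 in cultured cells), purity and depth filters. Python 3.11.15, numpy 2.4.6, scipy 1.17.1, pandas 2.3.3 and matplotlib 3.10.9 were used, and the scripts were tested on simulated data.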

Additional observations from a re-analysis of the deposited data

Results flagged for a closer look

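In 36 cells of the 5555 matrix that carried no annotation, Flt3l stood at 10.8 CPM (5 UMIs), above the limit of 6.50 that a count of 0 allows. In the 18 cells whose barcodes appear in more than 1 of the 5555 libraries, Flt3 stood at 44.0 CPM (5 UMIs), above a limit of 26.4. Neither set of cells entered a comparison.

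Xcl1 in the cultures moved in opposite directions in 2 classes between the conditions with Ptgs-/- and with Ptgs+/+ cells. In proliferating cDC2s it had 9 UMIs in 3 cells with Ptgs-/- cells, 6 of them in 1 cell, against 0. With a floor of 3 counts for the 0 this was 2.28-fold higher, where 7.62% of tested genes were higher. In pDCs the ratio was 0.357 (18 UMIs against 38, of which 29 lay in 1 cell), where 7.79% were lower. Each thus rests on few cells. The difference between the classes was not tested.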

How the results depend on the processing

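No paired analysis was possible because each group has 1 library or hashtagged condition and the labels give no replicate numbers, so no library could be left out either. Of 168 recomputed values of the 20 ratios, 146 stayed inside the counting interval of the reported ratio or, for bounds, on its side of 1. A further 21 moved outside it, and 1 reversed a ratio called higher or lower. Ratios within the fold that crossed 1 were not counted as reversed, as with Flt3 in cultured cDC1s relative to the median of all genes. Of 252 recomputed shares 66 moved, 43 of them under thinning.

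Larger pseudocounts pulled ratios of low genes towards 1. With a pseudocount of 5, Xcl1 over all cells was 1.96 for Ptgs-/- over Ptgs+/+ and 0.199 for NK-depleted over Ptgs-/-. With 20, these were 1.44 and 0.499, Flt3l over all cells was 1.19 for Ptgs-/- over Ptgs+/+, Flt3 in cDC2s was 0.512 for Ptgs-/- over Ptgs+/+ and 1.90 for NK-depleted over Ptgs-/-, and Xcr1 in cultured cDC1s was 0.423 for Ptgs+/+ over untreated. Thinning gave 3.42 for Xcl1 over all cells in Ptgs-/- over Ptgs+/+, 0.633 and 1.56 for Flt3 in cDC2s in Ptgs-/- over Ptgs+/+ and NK-depleted over Ptgs-/-, and 0.563 for Flt3 in cultured cDC2s in Ptgs+/+ over untreated. Means over cells gave 0.551 and 1.85 for the 2 tumour cDC2 ratios of Flt3. Relative to the median of all genes, Xcr1 and Flt3 in cultured cDC1s were 0.423 and 1.11 for Ptgs+/+ over untreated. Without cells holding UMIs of another lineage, Flt3 in cDC2s was 0.566 for Ptgs-/- over Ptgs+/+. The cause of these shifts was not tested.

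Filters on purity and cycling cells were chosen after seeing the data. Without cDC2s with macrophage UMIs, the Flt3 ratio reversed to 1.23 for Ptgs-/- over Ptgs+/+, with an interval that includes 1, and was 1.24 for NK-depleted over Ptgs-/-. With Clec9a+ cDC1s alone, Xcr1 was 3.25 for Ptgs-/- over Ptgs+/+ tumours and 0.413 in the cultures for Ptgs+/+ over untreated. Without cycling cells, Xcr1 in cDC1s was 1.07 for NK-depleted over Ptgs-/-. Xcl1 in T cells gave no thinned value, and Xcl1 over all cells in NK-depleted tumours no mean over cells. The 5555 libraries held 33 to 54 cDC1s each, with 1 to 3 Flt3l UMIs, and CCR7+ DCs held 0 to 2. These counts limit what can be told apart in the 2 classes.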
